A study of Mus musculus with 12 samples.

Results

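The genes described here are 10 genes of the integrated stress response, several of which carry short upstream open reading frames in their mRNA leaders: Atf4, Atf5, Ddit3, Ppp1r15a, Ppp1r15b, Ifrd1, Slc35a4, Trib3, Asns and Chac1. They were named as a list and found by gene symbol among 55335 gene rows; the rule sets no threshold on a measured value, but the list was drawn up with earlier results of these data known. Thymocytes, the developing T cells of the thymus, came from 3 wild-type (WT) mice and 3 mice lacking miR-181a/b-1 (KO), all 6 weeks old and kept under specific pathogen-free conditions. RNA-seq and ribosome footprinting, which sequences the mRNA stretches covered by ribosomes, gave 3 libraries for each genotype and assay, 12 in all. The cells were passed through 70 µm strainers and put at once into buffer with 0.1 mg/ml cycloheximide, which holds ribosomes on the mRNA; WT and KO shared this treatment, and no stress treatment is among the labels. The labels do not give the strain or the sex, how the deletion was made, or which RNA and footprint library came from the same mouse. The material was bulk thymocytes, in which fewer cells of a type and less RNA per cell cannot be told apart.

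In the integrated stress response, kinases that sense amino acid shortage, unfolded protein in the endoplasmic reticulum, viral RNA or haem deficiency phosphorylate the initiation factor eIF2 on its alpha subunit. This lowers translation of most mRNAs, while mRNAs with certain upstream reading frames, Atf4 the best known, are translated more. ATF4 then drives genes for amino acid supply and, with CHOP, genes for stress relief or cell death, and PPP1R15A brings in the phosphatase that ends the response. Upstream frames can also hold ribosomes away from the main frame when the response is low. The deposited values are 1 count per gene, so footprints on a leader, an upstream frame and the coding sequence were not separated. RNA reads on coding and untranslated parts of an mRNA were not separated either. The footprint to RNA ratio below therefore belongs to the whole gene and is not a density on the coding sequence.

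The deleted locus encodes 2 microRNAs, whose mature sequences are shown because they define the KO. They are RefSeq entries (GRCm38.p6) on the plus strand of chromosome 1, miR-181a-5p at chr1:137966468-137966490 and miR-181b-5p at chr1:137966650-137966673, with the seed (bases 2 to 8) in capitals:
mmu-miR-181a-5p: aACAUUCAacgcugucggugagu
mmu-miR-181b-5p: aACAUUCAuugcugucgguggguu
Both share 1 seed. The gene row of Mir181a-1 held 2898, 2370 and 1535 reads in the WT footprint libraries and 5, 16 and 4 in the KO footprint libraries, so the footprint libraries follow their genotype labels. In RNA-seq it held 25, 25 and 7 reads in WT and 16, 10 and 41 in KO, which does not separate the genotypes, and the row of Mir181b-1 was at 0 in all 12 libraries. The genotype of the RNA-seq libraries therefore rests on their labels.

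ATF4 with a C/EBP partner binds a composite element, searched here as TGATGNAAN on both strands of RefSeq promoter windows of 300 bases, from 250 before to 50 after the start of transcription (GRCm38.p6). It was present in 1299 of 32851 windows, or 3.95%. Windows were given for 8 of the 10 genes, and 3 of these held the element: Asns at chr6:7693214-7693242 (minus strand), Chac1 at chr2:119351038-119351066 (plus strand) and Trib3 at chr2:152344029-152344057 (minus strand). They are shown on the gene's strand, with 10 bases on each side and the match in capitals, because they are the 3 genes with the fewest reads in these thymocytes:
Asns: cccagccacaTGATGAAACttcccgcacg
Chac1: cttccctgccGTTGCATCActcctgccag
Trib3: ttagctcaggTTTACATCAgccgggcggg
The Asns match lay on the gene's own strand, 23 bases before the start of transcription. Those of Chac1 and Trib3 read on the opposite strand, with the Trib3 match inside the transcribed part. Atf4, Atf5, Ddit3, Ppp1r15a and Ifrd1 had a window without these letters. Among the other stress response and pathway genes listed below, 11 of 73 genes with a window had a match. A match is a stretch of letters and not a binding site.

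Reads in genes numbered 4479182 to 8180286 per RNA-seq library and 4069968 to 17859770 per footprint library. The summed level of 12 thymocyte markers was 16075 to 17287 CPM (reads scaled to a common total of reads in genes) in WT RNA. It was 14709 to 15530 CPM in KO RNA, and no marker was at 0. In footprints the sums overlapped (27935.5 to 29249 CPM in WT, 27342 to 28688.5 in KO). Single markers went both ways in RNA. Mean Rag1 was 7146 CPM in WT and 5736 in KO, whereas Cd4 (1014 against 1158) and Dntt (1051 against 1205) were higher in KO. In footprints, edgeR called 1 of the 12 higher in KO and 3 lower. Markers of other cell types were far lower, and several of their sums differed between genotypes without overlap. Dendritic cell markers summed to 16.3 to 21.8 CPM in WT RNA and 9.82 to 15.5 in KO RNA, and to 40.2 to 50.5 and 26.9 to 37.8 CPM in footprints. Thymic epithelium markers summed to 18.8 to 22.1 CPM in WT RNA and 14.2 to 17.3 in KO RNA, and to 75.3 to 82.1 and 59.7 to 70.3 CPM in footprints. In footprints Epcam carried this difference, with means of 38.2 CPM in WT and 26.1 in KO. Mean Krt5 was 17.7 and 16.6 CPM, Psmb11 7.44 and 7.46, Krt8 13.5 and 14.0, and Foxn1 0.840 and 1.28. In RNA, the sums of erythroid markers (75.7 to 90.6 against 46.5 to 58.2 CPM) and fibroblast markers (39.4 to 42.5 against 33.5 to 35.9 CPM) were lower in KO. Both sums overlapped in footprints. Not all their markers were lower in KO RNA. Mean Hbb-bs was 45.1 CPM in WT and 29.3 in KO, but mean Hba-a1 was 6.42 and 6.64 CPM. Col3a1 overlapped between genotypes (16.0 to 18.2 against 15.8 to 17.9 CPM). The endothelium sum was higher in KO RNA (169 to 176 against 202 to 212 CPM) and footprints (143 to 148 against 154 to 159 CPM). It was nearly all Pecam1, with means of 170 against 203 CPM in RNA and 137 against 150 CPM in footprints. Mean Cdh5 was lower in KO (1.24 against 0.813 CPM in RNA, 3.03 against 2.41 in footprints). Mean Kdr was higher (1.36 against 1.93 and 4.74 against 5.02 CPM), and Emcn had at most 2 reads per group. B cell and macrophage markers overlapped between genotypes in both assays. Markers at 0 were 1 erythroid gene in KO RNA and 1 endothelium gene in KO footprints. The part of cell composition in the KO against WT values below was not tested. Replicate libraries differed by more than sampling noise in every group. The labels call both count tables adjusted without saying how, and in both assays WT and KO libraries of the same number deviated from their group means in opposite directions. The labels place the replicates in separate mice, and p-values measure the spread between these libraries. With deviations of opposite sign, a fit that takes the libraries as independent can understate the error of KO against WT, so the FDRs of that comparison given below without a replicate block may be too small.

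The 3 transcription factors of the response were all detected, with Atf4, its central factor, at the most reads. Atf4 RNA was 82.5, 78.8 and 77.0 CPM in WT and 73.0, 76.9 and 77.7 CPM in KO. Its footprints were 44.6, 46.7 and 40.0 CPM in WT and 47.9, 45.5 and 53.2 CPM in KO, from 217 to 837 reads per library. Every footprint value was below every RNA value, and the genotypes overlapped in both assays. Atf5, a related factor whose leader has upstream frames like that of Atf4, had 8.24, 7.92 and 11.7 CPM in WT RNA and 11.1, 12.04 and 7.21 CPM in KO RNA. Its footprints were 3.48, 2.74 and 3.40 CPM in WT and 3.15, 3.95 and 3.18 CPM in KO. Ddit3, which encodes the pro-apoptotic factor CHOP, had 12.99, 11.7 and 9.06 CPM in WT RNA and 8.60, 9.68 and 11.8 CPM in KO RNA. Ddit3 footprints were 3.43, 4.52 and 3.59 CPM in WT and 3.98, 2.85 and 4.16 CPM in KO. For both genes the genotypes overlapped in each assay. Footprints of all 3 factors lay below RNA in every library. They also did so after footprints were scaled up by the median footprint to RNA ratio of all tested genes. On that scale the same held for 41.5% of all tested genes in WT and 40.6% in KO.

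The 2 genes for regulatory subunits of the eIF2 alpha phosphatase differed in how their footprints stood to their RNA. Ppp1r15b, the constitutive subunit, had 297, 323 and 303 CPM in WT RNA and 351, 320 and 342 CPM in KO RNA. Its footprints were 85.7, 98.4 and 89.3 CPM in WT and 100.1, 86.6 and 95.8 CPM in KO. Ppp1r15b footprints were thus far below its RNA in every library. Ppp1r15a, the stress-induced subunit GADD34, had 6.18, 6.95 and 6.45 CPM in WT RNA and 5.98, 5.19 and 5.72 CPM in KO RNA. Its footprints were 6.05, 4.80 and 3.69 CPM in WT and 3.52, 5.06 and 6.86 CPM in KO. All KO values of Ppp1r15a RNA were below all WT values, whereas its footprints overlapped between genotypes and with the RNA values.

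Ifrd1 and Slc35a4 are known for upstream frames that affect their translation under stress; Ifrd1 encodes a transcriptional coregulator and Slc35a4 a transporter-like protein, with a further small protein encoded upstream. Ifrd1 RNA was 52.7, 50.3 and 48.4 CPM in WT and 50.1, 52.6 and 54.0 CPM in KO. Ifrd1 footprints were 35.8, 36.7 and 33.5 CPM in WT and 27.95, 27.1 and 29.9 CPM in KO. The genotypes overlapped in Ifrd1 RNA and did not overlap in its footprints. Slc35a4 had 26.8, 29.9 and 29.8 CPM in WT RNA and 30.5, 27.1 and 27.4 CPM in KO RNA. Slc35a4 footprints were 18.3, 15.6 and 13.8 CPM in WT and 14.8, 18.0 and 20.6 CPM in KO, overlapping between genotypes.

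The remaining 3 genes, all targets of ATF4, were at or near the limit of detection in RNA and had few or no footprint reads. Trib3, a pseudokinase that restrains ATF4 and CHOP activity, had 3, 3 and 5 RNA reads in the WT libraries and 3, 3 and 2 in KO. Trib3 footprint reads were 10, 10 and 5 in WT and 9, 12 and 5 in KO, or 0.571, 0.558 and 0.473 CPM against 0.833, 0.778 and 1.22 CPM. Asns, the enzyme that makes asparagine, had 3, 5 and 0 RNA reads in WT and 2, 0 and 4 in KO. Asns footprint reads were 27, 27 and 17 in WT and 12, 17 and 4 in KO, or 1.54, 1.51 and 1.61 CPM against 1.11, 1.10 and 0.980 CPM. Trib3 footprints were higher and Asns footprints lower in all KO libraries than in all WT libraries, on few reads. Chac1, which degrades glutathione, had 0 reads in all 12 libraries. A count of 0 over a group allows up to 0.144 CPM in WT RNA, 0.157 in KO RNA, 0.0652 in WT footprints and 0.0990 in KO footprints (3 counts over the 3 libraries, counting error only).

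**Figure D1:**
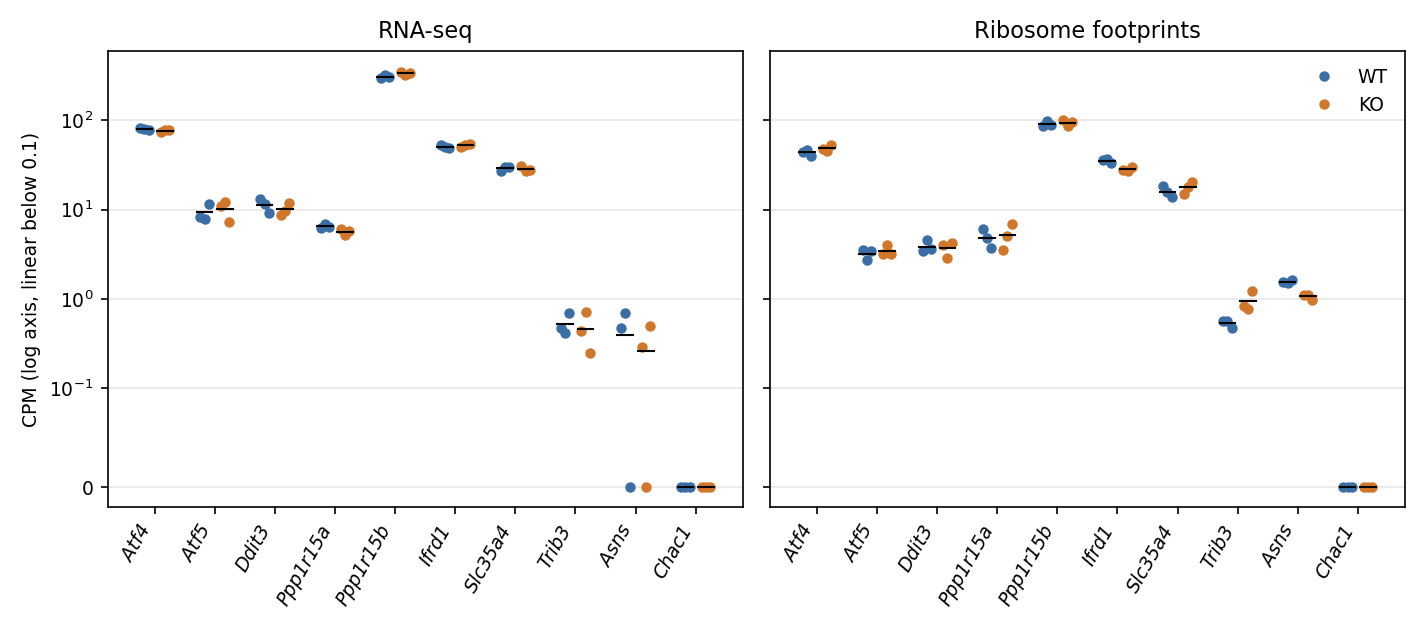
Level of each of the 10 genes in RNA-seq (left) and ribosome footprints (right) in CPM on a log axis that is linear below 0.1; each point is a library, blue for WT and orange for KO, with 3 libraries per group, and the black line is the group mean. Trib3 and Asns lie near or below 1 CPM in RNA, Chac1 is at 0, and Ifrd1 footprints do not overlap between genotypes; CPM is not corrected for gene length, so heights of different genes are not comparable.

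The first comparison asked how many footprints each gene had for its RNA, relative to other genes, in WT thymocytes. Of the 10 genes, 7 had enough reads in both assays, and 6 of these had a lower footprint to RNA ratio by edgeR's quasi-likelihood test at a false discovery rate (FDR, Benjamini-Hochberg) under 0.05: Atf4, Atf5, Ddit3, Ppp1r15b, Ifrd1 and Slc35a4. None was called higher. The same test called 47.1% of all 11854 genes lower and 36.5% higher, so a call is common, and the place of a gene among all genes is given instead. Ratios are log2 values less the median over all tested genes, since each assay is scaled to its own total. Before that subtraction the 7 genes had a median of -0.85 and all genes a median of -0.20 with quartiles of -1.08 and 0.69; after it, the median of the 7 was -0.66. All 7 lay below the median gene, at the 12.9th to the 43.9th percentile. Tested against the median gene instead of against equal CPM, 6 of the 7 were again lower, as were 41% of all genes. Passing the read minimum in both assays kept Trib3, Asns and Chac1 out of these counts.

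Ppp1r15b had the lowest ratio of the 7 in WT, -1.56 (95% interval -1.72 to -1.40), a footprint level 0.340 times that of the median gene with the same RNA. Atf5 followed at -1.35 (-1.80 to -0.89) and Ddit3 at -1.33 (-1.72 to -0.94), and the intervals of these 3 genes overlapped. Atf4 at -0.66 (-0.81 to -0.50) and Slc35a4 at -0.65 (-0.91 to -0.39) formed the middle, at the 30.5th and 30.8th percentile. The interval of Atf4 did not reach those of Ddit3 below it or of Ifrd1 above it. Ifrd1 stood at -0.31 (-0.45 to -0.18). Ppp1r15a, at -0.20 (-0.64 to 0.24), was not called lower (edgeR FDR 0.0866, and 0.372 against the median gene). Without WT footprint replicate 1 it was called lower, with an FDR of 0.0192. The phosphatase subunits thus stood at opposite ends, and their intervals did not overlap.

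In KO thymocytes the same 6 genes were called lower, beside 45.6% of all genes, and none higher, beside 36.3%. Ppp1r15b was again lowest at -1.68 (11.4th percentile), followed by Ddit3 at -1.37 and Atf5 at -1.30. Ifrd1 was at -0.73, Slc35a4 at -0.54, Atf4 at -0.48 and Ppp1r15a at -0.08 (edgeR FDR 0.336 against equal CPM, and 0.765 against the median gene). The order of Ifrd1 and Atf4 was the reverse of that in WT. These genotype differences are tested below.

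**Figure D2:**
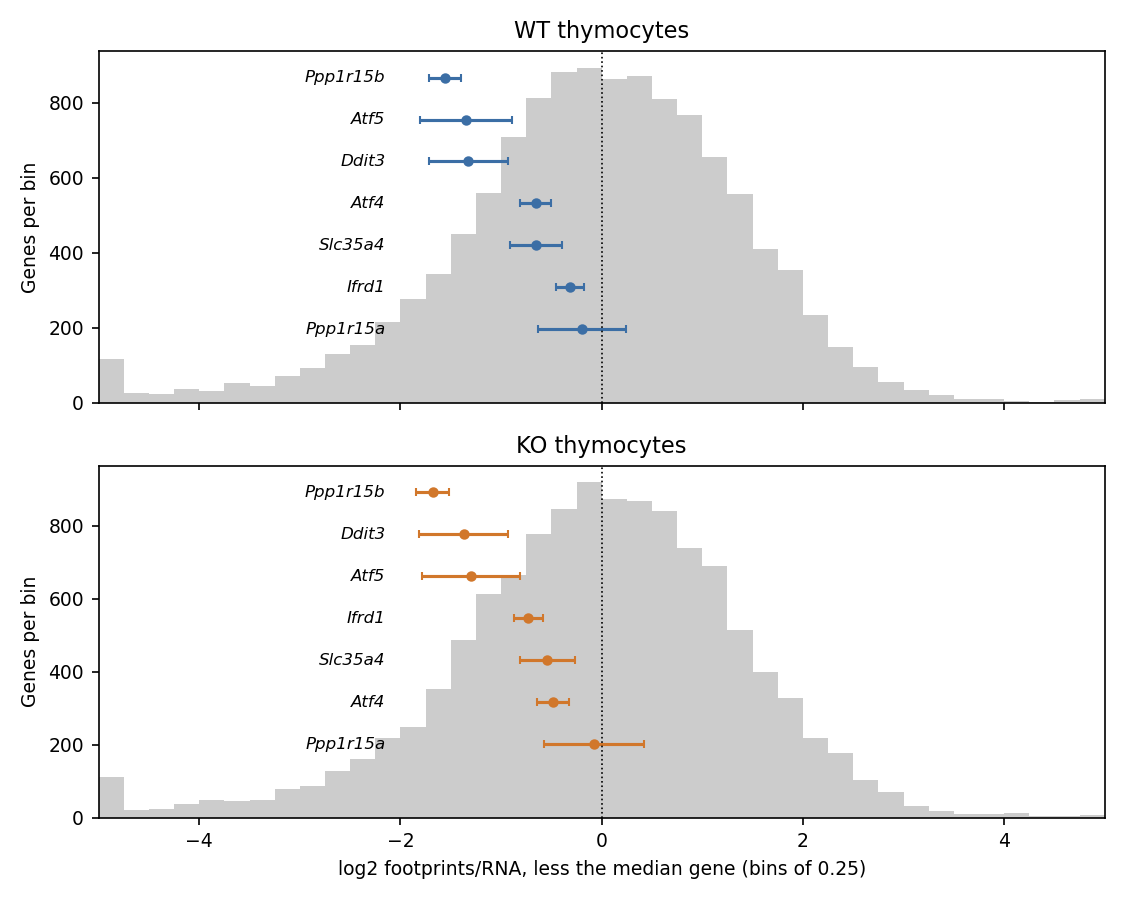
Footprint to RNA ratio in WT (top) and KO (bottom) thymocytes as log2 less the median gene; points with bars are the 7 tested genes with their 95% intervals, and the grey histogram counts all 11854 tested genes per bin of 0.25, with values beyond the axis in the outermost bins. All 7 points lie to the left of the dotted median line, from -1.56 to -0.20 in WT and from -1.68 to -0.08 in KO, within the body of the distribution.

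Asns stood apart from these 7 when genes with few reads were also tested. Its ratio was 2.21 above the median gene in WT (SE 0.489, edgeR FDR 0.0020, 90.2nd percentile) and 1.99 in KO (SE 0.596, FDR 0.0180). The RNA side rests on 8 reads in WT and 6 in KO, beside 71 and 33 footprint reads. Trib3 had ratios of 0.28 in WT (FDR 0.964) and 1.25 in KO (FDR 0.0997), neither called. The FDRs of Asns and Trib3 are for tests against equal CPM and not against the median gene. Before subtraction of the median, the log2 ratios in WT and KO were 1.97 and 1.76 for Asns and 0.04 and 1.02 for Trib3.

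The second comparison asked whether loss of miR-181a/b-1 changed these genes. In RNA, none of the 7 tested genes was called in either direction by edgeR, none had an unadjusted p under 0.05, and DESeq2 also called none; edgeR called 6.91% of all genes, and 0.806% with a replicate block. Their median log2 change was -0.02 and that of all genes 0.00. Atf4 RNA changed by -0.07 (95% interval -0.20 to 0.07, FDR 0.538). Ppp1r15b had the interval closest to excluding 0, at 0.13 (-0.01 to 0.28, FDR 0.244). Ppp1r15a, the gene whose RNA did not overlap between genotypes, had a log2 change of -0.20 (-0.61 to 0.21, FDR 0.532); 15.3% of all genes were lower in KO without overlap. The intervals of Atf5 (-0.50 to 0.65) and Ddit3 (-0.57 to 0.28) leave room for sizeable change in either direction.

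In footprints, Ifrd1 fell in KO and was the single gene called among the 9 that passed the read minimum, where edgeR called 8.34% of all genes lower and 9.25% higher. Ifrd1 footprints went from 35.3 ± 1.65 CPM (SD, n = 3) in WT to 28.3 ± 1.43 CPM (SD, n = 3) in KO, a log2 change of -0.34 (SE 0.06, 95% interval -0.48 to -0.20, edgeR FDR 0.0121). All 3 KO values lay below all 3 WT values, as in 19.5% of all genes in that direction. The call was lost without KO footprint replicate 1 (FDR 0.0528) or replicate 2 (FDR 0.0654), with a block for the replicate number (FDR 0.191; 3.02% of all genes called) and with DESeq2 (FDR 0.0527), with log2 changes of -0.37 to -0.31 over the left-out libraries. In the authors' deposited table the log2 fold change of Ifrd1 footprints was -0.299 with an adjusted p of 0.0483, the single value under 0.05 among the 7 of these genes in each of their 2 tables.

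The other 8 genes were not called in footprints. Trib3 passed the read minimum (0.760 CPM in 3 libraries) only through the KO group, and the median of the other 8 genes was -0.0044 beside -0.01 for all genes. Atf4 footprints had a log2 change of 0.13 (-0.05 to 0.32, FDR 0.294), Atf5 0.15 (-0.22 to 0.52) and Ddit3 -0.16 (-0.62 to 0.30). Ppp1r15b, the most precisely measured, had 0.04 (-0.14 to 0.22). Asns, whose footprints did not overlap between genotypes, had a log2 change of -0.50 (-1.11 to 0.11, FDR 0.227). Trib3, also without overlap, was tested without the read minimum and had a log2 change of 0.66 (SE 0.38, edgeR FDR 0.419). Of all genes, 38.1% did not overlap, and at these counts neither change was detectable.

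The third comparison, a test of genotype by assay in 1 model of all 12 libraries, asked whether footprints changed beyond RNA. None of the 7 tested genes was called by edgeR or DESeq2, and edgeR called 0.211% of all genes. Ifrd1 was the single one with an unadjusted p under 0.05: its ratio differed by -0.39 on the log2 scale (SE 0.09, edgeR FDR 0.0985), and its RNA change was 0.05 (-0.10 to 0.20). Atf4 had the next largest value, 0.20 (-0.02 to 0.43, FDR 0.409). The change in order of Ifrd1 and Atf4 between the genotypes therefore rests on 2 differences that did not pass the test.

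**Figure D3:**
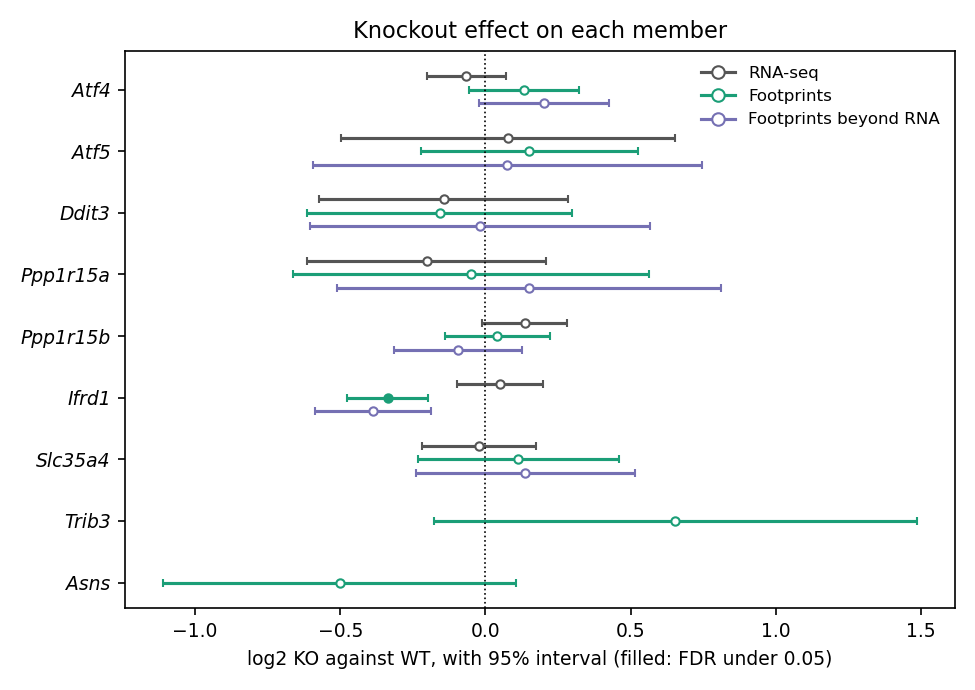
Log2 change of KO against WT for each gene in RNA-seq, in footprints and in footprints beyond RNA (the interaction), with 95% intervals from edgeR; filled points have an FDR under 0.05. The footprint value of Ifrd1, -0.34, is the single filled point, and the intervals of Atf5, Ddit3, Ppp1r15a, Trib3 and Asns are the widest; Trib3 passed the read minimum only through KO.

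The rest of the pathway was read from 10 lists with 92 genes, the 10 genes above not included. In the WT footprint to RNA ratio, 45 of 76 tested genes were called higher and 12 lower, with a median of 0.79 above the median gene. Subunits of eIF2 and of its exchange factor eIF2B had 7 of 8 called higher and none lower, with a median of 1.44, from Eif2s2 at 0.27 to Eif2b1 at 1.77. Aminoacyl-tRNA synthetases under ATF4 control, which charge tRNAs, had 4 of 4 called higher, with a median of 1.70, from Sars at 1.35 to Wars at 1.89. Enzymes of amino acid synthesis had 7 of 8 called higher, with a median of 1.37, from Gpt2 at -0.23 to Shmt2, the mitochondrial serine enzyme, at 2.62. Of the genes of the unfolded protein response of the endoplasmic reticulum, 14 of 18 were called higher and 3 lower, with a median of 1.34, from Edem1 at -1.51 to the chaperone Hspa5 at 2.697. Here 36.5% of all genes were called higher.

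In WT, the other lists held calls in both directions or in few genes. In none of them was the share called lower above the 47.1% among all genes, except the C/EBP factors with 1 of 2. Kinases of eIF2 alpha and their regulators had 2 of 8 called higher and 3 lower, with a median of 0.17; the lowest was Impact, an inhibitor of the amino acid sensing kinase GCN2, at -1.85, and the highest Eif2ak1, the haem-regulated kinase, at 0.85. Among other genes known for upstream reading frames, 1 of 7 was called higher and 3 lower in WT, a share close to that among all genes. Their median was -0.55, from Ibtk at -0.77 to Eprs at 1.11. In KO, 1 of these 7 was called higher and 5 lower, beside 45.6% of all genes called lower, with a median of -0.23. With the replicate block, 3 were called lower in WT and 2 in KO. Of the C/EBP factors, Cebpg at -1.23 was called lower in WT. Cebpb at 0.70 was called higher, a call lost with DESeq2 (FDR 0.0995), with the replicate block (FDR 0.244) and without WT RNA replicate 1 or 3 or WT footprint replicate 2 or 3 (Cebpb FDR up to 0.106). Amino acid transporters had 4 of 7 called higher and 1 lower, with a median of 0.61, from Slc7a11, the cystine transporter, at -0.74 to Slc3a2 at 2.31. Other ATF4 and CHOP targets had 1 of 7 called in each direction, with a median of 0.24, from Bcl2l11 at -1.59 to Bbc3 at 0.62. The higher call, Bbc3, was lost with the replicate block (FDR 0.241) and without WT RNA replicate 1 or 2 or WT footprint replicate 1 or 3 (Bbc3 FDR up to 0.146). Immediate early and dissociation stress genes had 4 of 7 called higher and none lower, with a median of 0.79, from Ier2 at 0.43 to Jun at 1.42.

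**Figure D4:**
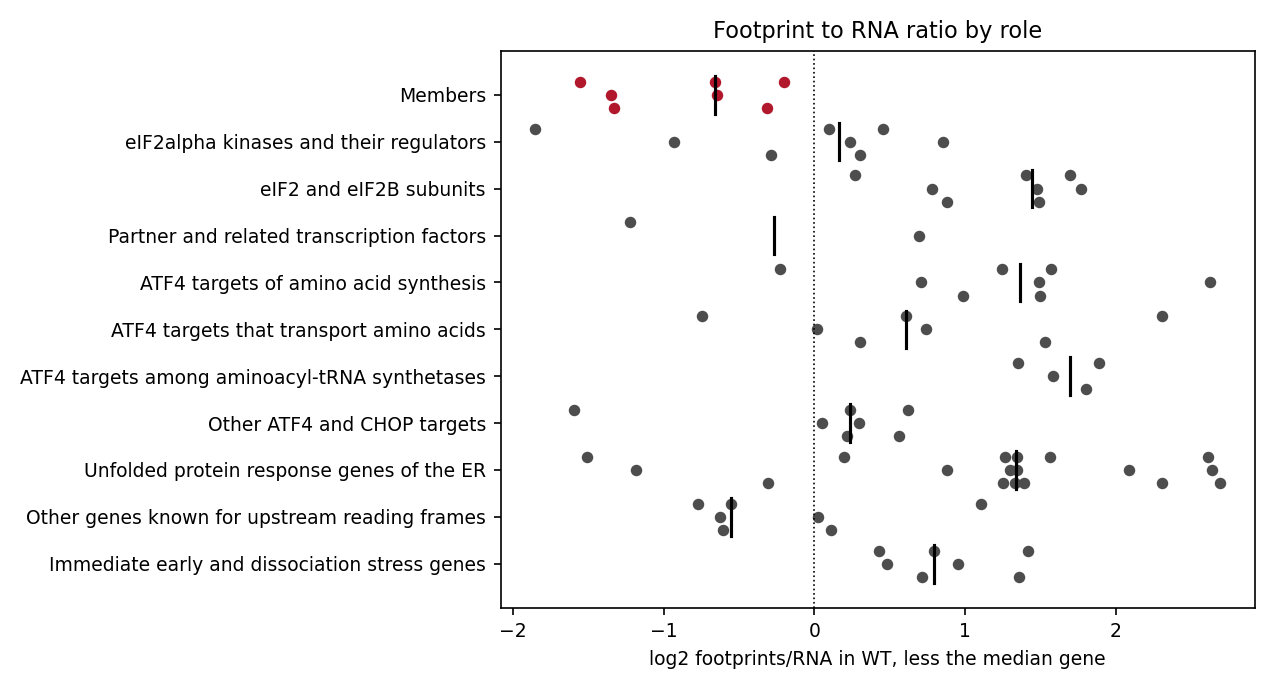
Footprint to RNA ratio in WT thymocytes as log2 less the median gene, 1 point per tested gene, with the 10 stress response genes (7 tested) in red on the top row and the pathway lists below; vertical bars are medians. The red points all lie below 0 with a median of -0.66, and the medians of eIF2 and eIF2B subunits, synthetases, amino acid synthesis and the unfolded protein response lie between 1.34 and 1.70.

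Between genotypes, few pathway genes were called in RNA. Of 77 tested, 5 were higher and 2 lower in KO, with a median of -0.05: Ddit4 at 0.94, the oxidase Ero1l at 0.40, the stress sensor kinase Ern1 at 0.40, the RNA-activated kinase Eif2ak2 at 0.33, Slc7a11 at 0.24, Dnajb11 at -0.37 and the leucine transporter Slc7a5 at -0.44, with edgeR FDRs of 0.0200 to 0.0498. None of the 7 was called with the replicate block, and without any 1 library at most 1 was called. Of the 6 lists without a call, the eIF2 and eIF2B subunits had a median of -0.19, the synthesis enzymes -0.16, the synthetases -0.09, the immediate early genes -0.06, the genes with upstream frames 0.09 and the 2 C/EBP factors 0.27.

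In footprints, 10 of 80 tested pathway genes were higher and 14 lower, where 9.25% of all genes were higher and 8.34% lower. Ddit4, which encodes the inhibitor of mTORC1 also called REDD1, rose most. Ddit4 footprints were 149, 147 and 192 CPM in WT and 528, 532 and 399 CPM in KO. Every KO value was above every WT value, with a log2 change of 1.59 (SE 0.15, edgeR FDR 0.0018, 0.0003 with the replicate block). Its RNA was 104, 119.8 and 153 CPM in WT and 288, 258 and 179.7 CPM in KO, also without overlap, and the change of footprints beyond RNA, 0.65 (SE 0.26, FDR 0.290), was not called. In the same list of ATF4 and CHOP targets the pro-apoptotic genes Bbc3 (0.60) and Bcl2l11 (0.34) and Ero1l (0.34) rose, none fell, and 9 were tested with a median of 0.02. Bcl2l11 was not called without KO footprint replicate 1 (FDR 0.0532).

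The unfolded protein response list had 2 of 18 higher and 6 lower in footprints, with a median of -0.12. Its largest called changes were Atf6 at -0.49, the ubiquitin ligase Syvn1 at -0.29, Ern1 at 0.29 and Herpud1 at 0.29. Calr (edgeR FDR 0.0063) and Manf (edgeR FDR 0.0048) were also lower. Both stayed called with each library left out (FDR up to 0.0364 and 0.0310). None of the lower calls in this list held with the replicate block. Of 8 eIF2 and eIF2B subunits, Eif2b1 (-0.29), Eif2b2 (-0.25) and Eif2s2 (-0.19) were lower and none higher. The endoplasmic reticulum kinase Eif2ak3 (PERK) was lower at -0.20, the 1 call among 8 kinases and regulators. Slc1a4, a neutral amino acid transporter, was lower at -0.88, the 1 call among 7 transporters. Cebpb was higher at 0.55, and the p53 ligase gene Mdm2 lower at -0.15 among 7 tested genes with upstream frames. No synthetase was called among 4 (median -0.05) and no enzyme of amino acid synthesis among 9 (median -0.12). Of the genes named in these 2 paragraphs, Ddit4, Bbc3, Ero1l, Eif2b1, Calr and Manf were called without any 1 of the 6 libraries. Herpud1, Eif2s2, Eif2ak3 and Mdm2 were lost whichever library was left out. Atf6, Ern1, Eif2b2, Slc1a4 and Cebpb were each lost in 4 of these 6 fits, Syvn1 in 2 and Bcl2l11 in 1.

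Immediate early and dissociation stress genes, which respond to handling of tissue as well as to signals, moved in both directions in footprints. Egr1 (0.57), Nr4a1 (0.49) and Ier2 (0.46) were higher and Jun (-0.69) and Dusp1 (-0.51) lower, of 8 tested with a median of 0.32. Ier2 and Jun were called without any 1 library, and the other 3 were each lost without KO footprint replicate 2. Egr1 was lost in 4 of the 6 fits with 1 library left out, Dusp1 in 3 and Nr4a1 in 1. The summed footprint level of the 11 listed genes was 264 to 317 CPM in WT and 345 to 422 CPM in KO, and in RNA 196 to 215 CPM and 208 to 228 CPM. None of the 11 was at 0 in either group of either assay. The part of handling in the changes of Ifrd1, Ddit4 and the other genes was not tested. With the replicate block, Ddit4, Nr4a1 and Egr1 were the pathway genes still called, and none of the 14 lower genes was. No pathway gene of 76 was called for a change of footprints beyond RNA.

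**Figure D5:**
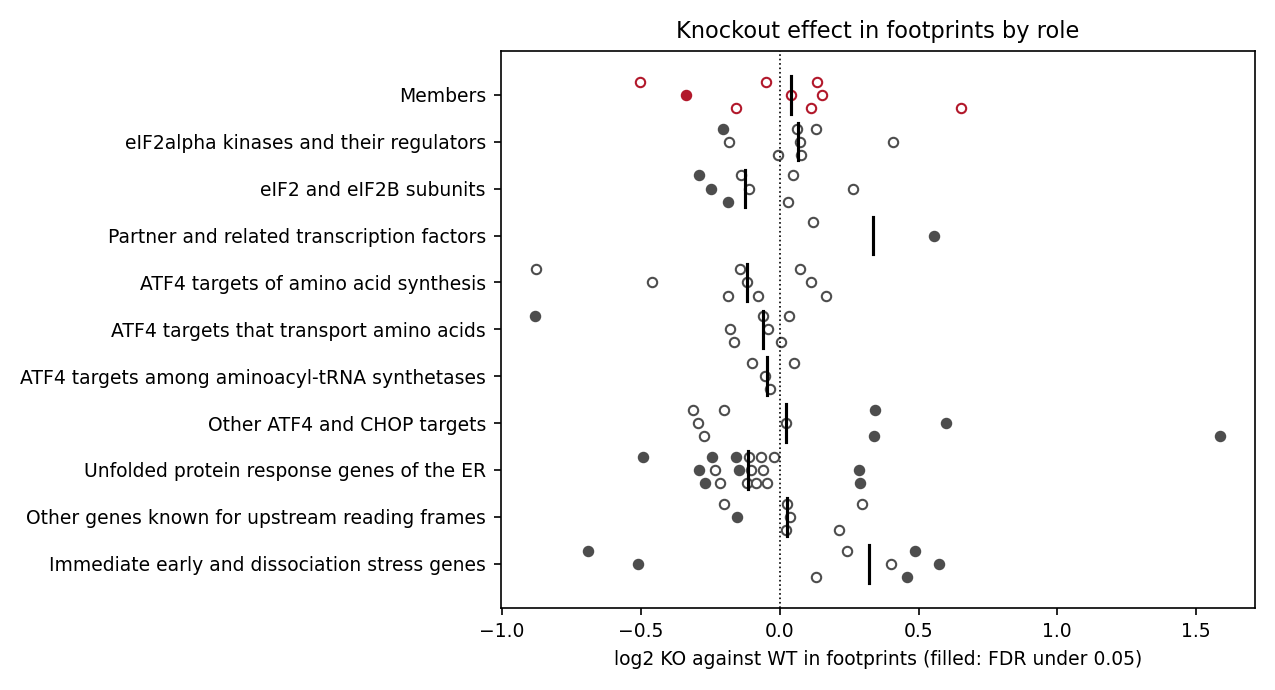
Log2 change of KO against WT in footprints, 1 point per tested gene, with the 10 stress response genes (9 tested) in red on the top row and the pathway lists below; filled points have an edgeR FDR under 0.05 and vertical bars are medians. Ddit4 is the rightmost point at 1.59, and the filled red point is Ifrd1 at -0.34.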

How the data were processed

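RNA-seq and ribosome footprints of thymocytes from 3 WT and 3 KO mice were analysed from 2 tables of read counts per gene, 1 per assay, deposited by the authors as adjusted counts. The submitters' processing notes name FastQC, Bowtie2 2.5.1, STAR 2.7.10a, HTSeq 2.0.3 and DESeq2 1.40.2. The genome build, annotation, strand setting and kind of adjustment were not given in the sources used here. Libraries were made with the Illumina TruSeq Ribo Profile (Mammalian) kit, per the labels' protocols. Counted reads that belong to no single gene, 71.5 to 73.0% in RNA-seq and 26.9 to 27.7% in footprints, were left out. Reads on no annotated feature alone were 50.9 to 57.1% of counted reads in RNA-seq and 5.32 to 6.39% in footprints. The authors' deposited comparison tables gave log2 fold changes and adjusted p-values; 12 columns of values per library in them were not used. Symbols were assigned to 54587 gene rows by versioned Ensembl ID and to 567 by ID without version; a second row with the symbol Ddit3 had no reads.

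Genes passing edgeR's filterByExpr (minimum count 10) were scaled by TMM within each assay and fitted with edgeR 4.0.16 (glmQLFit, glmQLFTest; R 4.3.3), the genotypes within an assay or, for ratios and the interaction, 4 group means over all 12 libraries. P-values were adjusted by Benjamini-Hochberg over all genes tested, with a threshold of 0.05. Standard errors follow the reported p, which edgeR bounds by Poisson variance. The code was checked on simulated data. Alternatives were other size factors (RLE), DESeq2 1.42.0, no filter, a joint fit, scaling over all 12 libraries, a test against the median gene, a replicate block and leaving out each library. The named genes are the members and, per list, up to 4 called genes with the largest change, or for ratios the highest and lowest gene. Calr, Manf and single cell type markers were named in addition. Members and lists were chosen with earlier results of these data known. Footprints per coding length were not computed, as no coding lengths were used here.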

Additional observations from a re-analysis of the deposited data

How the results depend on the processing

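The 6 lower footprint to RNA ratios among the genes were called under every alternative run, in WT and in KO. Leaving out 1 library gave 6 to 7 such calls in WT, Ppp1r15a being the 7th, and 6 in KO; with no filter 1 gene, Asns, was called higher in each genotype against 0. Scaling over all 12 libraries moved the median ratio of all genes by 0.187 in WT and 0.172 in KO, and ratios here are relative to that median.

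Same-numbered WT and KO libraries were tied with opposite sign. The parts of a shared litter or day and of the adjustment of the counts in this were not tested. The tie is a dependence, which the fit without a block leaves out, so the FDRs of that fit may be too small. The block was run as an alternative only. Their deviations from the group means correlated at -0.987 to -0.969 in RNA (9065 genes) and -0.991 to -0.99 in footprints (8149 genes), against 0.213 to 0.703 and 0.38 to 0.633 for other numbers of the other genotype. With the replicate block, genes called fell from 943 to 110 in RNA, from 2375 to 408 in footprints and from 25 to 2 in the interaction. The block left 0 genes of the 10 called lower in footprints, 0 pathway genes called higher and 0 lower in RNA, and 3 higher and 0 lower in footprints. Pathway ratios called lower in KO went from 16 to 10. Under the block, the log2 changes of Ppp1r15a footprints (6.66e-05) and of the Ddit3 interaction (0.026) changed sign, neither being called.

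DESeq2 called 532 genes in RNA, 1248 in footprints and 55 in the interaction. It called 1 pathway gene higher and 0 lower in RNA, 7 pathway genes lower in footprints, and 0 of the 10 genes lower in footprints. The DESeq2 log2 change was 0.016 for Ppp1r15a footprints (DESeq2 FDR 0.988) and 0.011 for the Ddit3 interaction (DESeq2 FDR 0.994). The joint fit called 1557 genes in RNA. With no filter, 3 pathway genes were higher in RNA and 9 lower in footprints. The cause was not tested.

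Leaving out 1 library gave 215 to 321 genes in RNA, 1037 to 1554 in footprints and 5 to 23 in the interaction; fewer samples enter these fits. Pathway calls were 0 to 1 higher and 0 to 0 lower in RNA, and 5 to 8 higher and 4 to 9 lower in footprints, with 0 to 1 of the 10 genes lower. Changes of sign, all of genes without a call, gave log2 ranges in RNA of -0.044 to 0.296 for Atf5 and -0.080 to 0.0030 for Slc35a4. In footprints they were -0.015 to 0.249 for Atf5, -0.278 to 0.054 for Ddit3, -0.18 to 0.17 for Ppp1r15a and -0.0061 to 0.10 for Ppp1r15b. In the interaction they were -0.15 to 0.19 for Atf5 and -0.14 to 0.20 for Ddit3, and in the KO ratio -0.17 to 0.16 for Ppp1r15a. At most 12 reads of Trib3 per library, at most 5 RNA reads of Asns and none of Chac1 limit what can be said of these 3 genes.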
